A study of Mus musculus with 8 samples.

Results

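The synaptic vesicle and regulated exocytosis module comprised 39 genes, taken by symbol from a list of the SNARE proteins, calcium sensors, vesicle proteins, Rab3 GTPases, priming factors and granule phosphatases that release transmitter and hormone, and all 39 were among the 23361 genes measured. RNA was sequenced from 5 cancers of the gastric squamocolumnar junction (SCJ) and from the SCJ of 3 control stomachs. The cancers, labelled Trp53-/-Rb1-/-, arose in mice that carried Lgr5 eGFP-Ires-CreERT2, floxed alleles of both genes (Rb1 loxP/loxP and Trp53 loxP/loxP) and the Ai9 tdTomato reporter and that were given tamoxifen, so that Cre acted in cells with an active Lgr5 locus, and tdTomato marked the tumour borders for dissection. The controls were wild type SCJ of age-matched mice. The controls came from separate stomachs, while whether each cancer came from a separate animal is not stated, and p-values therefore measure the spread between these samples, which may be partly technical.

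In neurons and endocrine cells, cargo is packed into synaptic vesicles or larger dense core granules and held near the plasma membrane until calcium enters. A vesicle SNARE (VAMP) zips together with the target SNAREs SNAP-25 and syntaxin-1 to fuse the membranes, synaptotagmins sense the calcium, Rab3 GTPases and their effectors tether the vesicle, and Munc13, CAPS and complexin prime and clamp the complex. In the stomach, regulated exocytosis serves both the hormone-secreting enteroendocrine cells and the exocrine chief and mucous cells, which use partly different paralogues.

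Many neuronal genes carry an RE1 element, the binding site of the repressor REST, and several secretory genes carry the cyclic AMP response element (CRE). RefSeq windows from 250 bases before to 50 after a transcript start (GRCm38.p6) were found for 30 of the 39 members, in 39 windows. They were searched on both strands for the RE1 letters TTCAGCACC, GGACAG and GCC, with 2 unspecified bases after the first block and 1 after the second, and for the CRE letters TGACGTCA. With up to 4 of the 18 RE1 letters mismatched, 3 of 39 member windows held a match, as did 0.575% of 32851 windows of all genes, and the member windows were richer in G and C (median 58.8% against 52.4%), a difference whose part in these shares was not tested. The 3 matches are shown because these genes encode a vesicle protein, a Rab3 effector and a priming factor, and capitals mark letters equal to the motif:
Syn1, chrX:20921130-20921150, minus strand, 17 of 18 letters: TTCAGCACCgcGGtCAGaGCC
Rph3a, chr5:121009614-121009634, plus strand, 15 of 18 letters: gTCAGtACCacGGACAGcaCC
Unc13a, chr8:71671727-71671747, plus strand, 14 of 18 letters: TTCAGCACCggGGgCgcgGaC
The Syn1 match lay from -232 to -212 relative to the start, the Rph3a match from -96 to -76, and the Unc13a match from 10 to 30 with the first transcribed base counted as 0. A match with at most 1 mismatch was found in 0.0152% of all windows, which were 5 windows. The full CRE was found in 1 of 39 member windows, that of Syn1, and in 1.79% of all windows. A match of letters is a description and not a measured binding site.

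The 250 bases before the starts of Syn1 and Ptprn are shown because Syn1 held both motifs and Ptprn had the highest level of all members in the cancers. In Syn1 the capitals mark the RE1 match and the CRE, and in Ptprn the CRE half-site TGACG on either strand, a motif found in 8 of 39 member windows and 20.8% of all windows:
Syn1, chrX:20920919-20921168, minus strand: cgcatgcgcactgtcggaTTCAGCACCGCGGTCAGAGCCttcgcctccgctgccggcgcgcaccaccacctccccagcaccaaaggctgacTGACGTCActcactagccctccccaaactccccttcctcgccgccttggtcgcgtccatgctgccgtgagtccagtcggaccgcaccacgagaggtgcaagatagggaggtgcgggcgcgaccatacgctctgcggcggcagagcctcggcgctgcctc
Ptprn, chr1:75264209-75264458, minus strand: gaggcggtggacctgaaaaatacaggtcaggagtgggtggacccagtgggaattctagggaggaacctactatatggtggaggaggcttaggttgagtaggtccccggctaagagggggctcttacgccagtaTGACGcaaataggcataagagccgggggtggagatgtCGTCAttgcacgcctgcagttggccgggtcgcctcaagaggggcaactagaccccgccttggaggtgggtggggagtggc
The E-box CAGCTG occurred in 10 of 39 member windows and 16.3% of all windows, and the NeuroD-type E-box CAGATG in 4 of 39 and 17.2%.

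Levels were FPKM, fragments per kilobase of transcript and per unit of sequencing depth, deposited as whole numbers, so they can be compared between genes per length. A gene was tested where FPKM reached 1 in at least 3 samples, and 36 of the 39 members were among the 14357 genes tested. Differences are those of mean log2(FPKM + 1), cancer minus control, with the SE of limma and an adjusted p called at 0.05. The added 1 makes them understate the change of low genes. Sequencing depth is unknown. A listed 0 can be a failed estimate: Pgc, the pepsinogen of chief cells, was listed at 0 in controls 2 and 3 but at 28832 in control 1. For a gene listed at 0 in all controls no fold is given.

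Of the 36 members tested, 25 were higher in the cancers, 2 were lower and 9 did not pass the test. Among all genes tested 16.2% were higher and 18.3% lower, against 69.4% and 5.56% of the members tested. All 5 cancers lay above all 3 controls for 22 members and below them for 3, against 14.4% and 19.8% of all genes. The median difference was 1.63 over the tested members and -0.04 over all genes tested. It was 1.37 without the 8 tested members listed at 0 throughout the controls. These 8 reached the level needed for testing only through the cancers. All of them but Syn3 are counted among the 25 and the 22, so those counts are partly set by that rule. The summed FPKM of the 39 members was 1442, 652, 1160, 711 and 1397 in cancers 1 to 5 and 274, 311 and 372 in controls 1 to 3. Every cancer therefore had a larger sum than every control, with cancers 2 and 4 nearest to them. In bulk tissue, more cells of a type and more RNA per cell cannot be told apart.

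FPKM sums over all genes were 403569 to 573858 in the cancers against 887141 to 992550 in the controls, whose 10 most abundant genes held 39.3% to 44.3% of the sum against 11.1% to 19.6% in the cancers. Rescaled to a common sum (TPM), the median of all genes moved from -0.04 to 0.81, 50.0% of genes were called higher and 3.68% lower, and 29 members were higher and 1 lower with a median of 2.53. All 25 higher members were also higher on that scale. After quantile normalization, which called 13.2% of all genes in each direction, 22 members were higher and 1 lower. All 22 were among the 25. In every fit that left out 1 sample, 20 of the 25 kept their call.

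**Figure D1:**
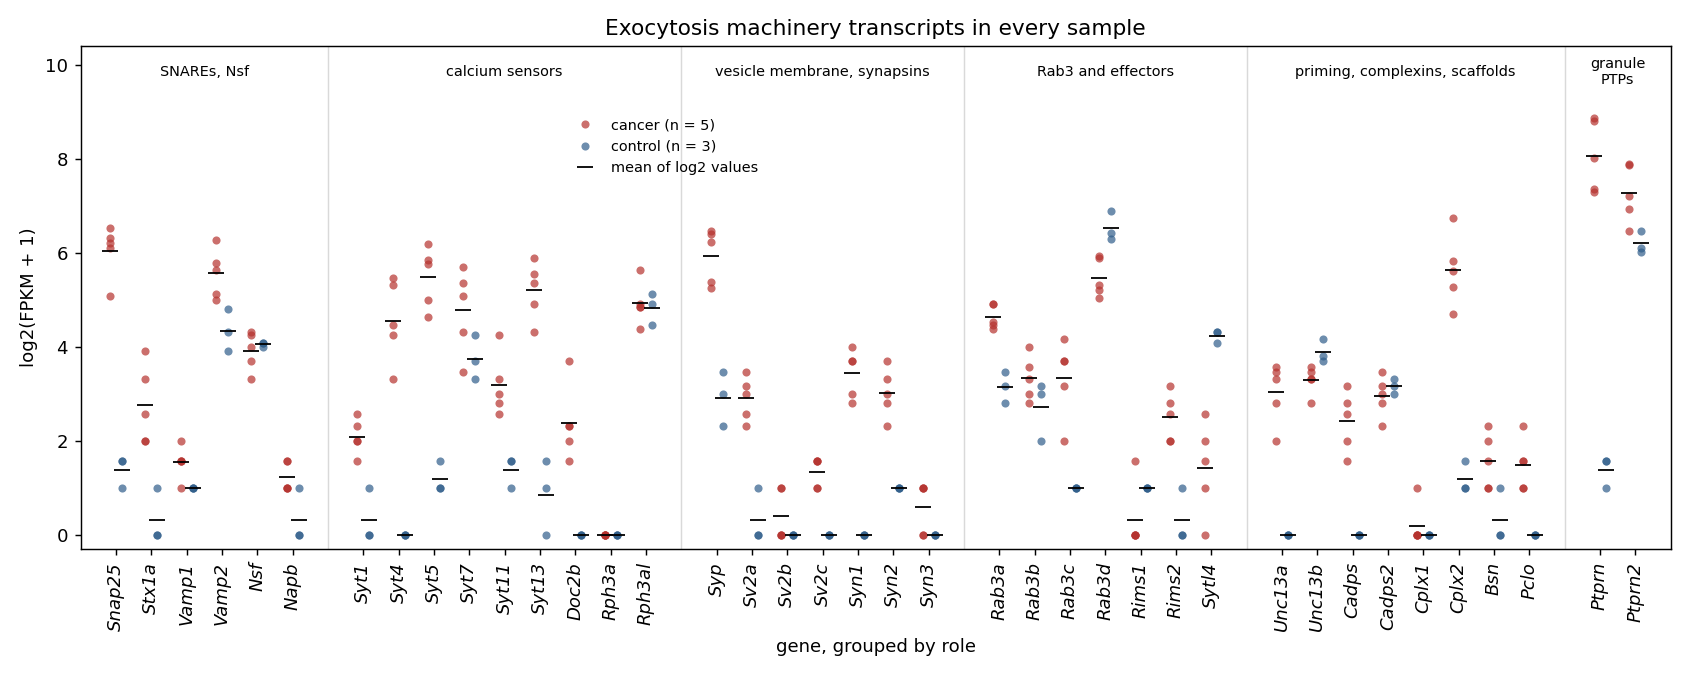
Level of the module's members, log2(FPKM + 1), in each of 5 cancers and 3 controls, with genes along the x axis grouped by role, red points for cancers, blue points for controls and a line at the mean of each group. Ptprn, at 156 to 467 FPKM, has the highest cancer points, and the control points lie above all cancer points for Rab3d, Sytl4 and Unc13b.

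Among the SNARE proteins and their ATPase, 4 of 6 members were higher and the other 2 did not pass the test, with a median difference of 1.06. Snap25 (chr2:136713449-136782428, mm10), the target SNARE of neurons and endocrine cells, had FPKM of 73, 33, 91, 68 and 79 in cancers 1 to 5 and of 1, 2 and 2 in controls 1 to 3. Its lowest cancer was many times its highest control, and the difference of 4.66 ± 0.33 had an adjusted p of 0.00041 in limma. Stx1a, syntaxin-1A, its partner in the plasma membrane, stood at 5, 3, 9, 3 and 14 FPKM in the cancers against 1, 0 and 0 in the controls. Levels were low but did not overlap, with a difference of 2.43 ± 0.50 and an adjusted p of 0.0105. Vamp2, the main vesicle SNARE of synaptic vesicles, reached 49, 31, 54, 34 and 76 FPKM in the cancers against 14, 19 and 27 in the controls. The groups did not overlap, yet the lowest cancer stood just above the highest control, and the difference was 1.22 ± 0.33 with an adjusted p of 0.0261. That call was lost without cancer 1, cancer 3, control 1 or control 2, with adjusted p of 0.0522, 0.0632, 0.105 and 0.0818, in a range of 0.00323 to 0.105 over all alternatives.

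Napb, the neuronal form of the SNAP adaptor that brings NSF to spent SNARE complexes, was listed at 2, 1, 1, 1 and 2 FPKM in the cancers against 0, 1 and 0 in the controls. These values overlap and lie at the limit of the rounding, and the difference of 0.90 ± 0.29, with an adjusted p of 0.0466, was lost without any 1 library other than control 2, with adjusted p of 0.0544 to 0.156, and after quantile normalization at 0.311, the highest over its alternatives. Vamp1, a second vesicle SNARE, ranged from 1 to 3 FPKM in the cancers and was 1 in every control, with a difference of 0.55 ± 0.22 and an adjusted p of 0.0803. It passed the test without cancer 5, at 0.016, and on TPM, at 0.00781, in a range up to 0.652 over its alternatives. Nsf, the ATPase that takes SNARE complexes apart in every cell, stood at 9 to 19 FPKM in the cancers against 15 or 16 in the controls, and its difference of -0.14 ± 0.24 had an adjusted p of 0.66. The direction of Nsf turned on TPM, where the difference was 0.79, and after quantile normalization, where it was 0.069.

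The synaptotagmins and other calcium sensors were listed together with the Rab effectors Rph3a and Rph3al. In this group 6 of 8 tested were higher and the other 2 did not pass the test, with a median difference of 2.09. Syt5 (chr7:4539764-4546567), a synaptotagmin of dense core granules, had FPKM of 72, 24, 57, 31 and 53 in the cancers against 1, 1 and 2 in the controls. The groups were far apart, at 4.29 ± 0.37 with an adjusted p of 0.000778. Syt13 (chr2:92915100-92956051), an atypical synaptotagmin that binds no calcium, was 58, 29, 40, 19 and 46 in the cancers against 1, 2 and 0 in the controls. It too was separated without overlap, with a difference of 4.34 ± 0.45 and an adjusted p of 0.00108. Syt4, a synaptotagmin of maturing granules, was 21, 9, 39, 18 and 43 FPKM in the cancers but listed at 0 in all 3 controls. Its adjusted p was 0.00108. Gm26658, on the opposite strand, shares 566 of the 3892 exonic bases of Syt4. It was not among the genes measured, so its level is unknown, and whether counting used strand is not given. The levels of Syt5, Syt13 and Syt4 were lowest in cancer 2 or cancer 4.

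Syt1, the fast calcium sensor of synaptic vesicles, was low, at 5, 3, 2, 3 and 4 FPKM in the cancers against 0, 1 and 0 in the controls. Its difference was 1.77 ± 0.31 with an adjusted p of 0.00597. Syt11, a relative that binds no calcium, reached 9, 5, 6, 7 and 18 FPKM against 1, 2 and 2. Both were separated without overlap, Syt11 by 1.8 ± 0.38 with an adjusted p of 0.0111, which rose to 0.0517 without control 1, in a range of 0.00234 to 0.0846 over its alternatives. Doc2b, a soluble sensor with high calcium affinity, was 4, 2, 4, 3 and 12 FPKM in the cancers but listed at 0 in the controls, with an adjusted p of 0.00652.

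Syt7, a slower, high-affinity sensor that many non-neuronal cells also use, had FPKM of 40, 10, 33, 19 and 51 in the cancers against 9, 18 and 12 in the controls. Cancer 2 lay among the controls, and the difference of 1.03 ± 0.51 had an adjusted p of 0.150. Without cancer 2 it passed at 0.0319, and on TPM at 0.0229, in a range of 0.011 to 0.402 over its alternatives. Rph3al, the Rab effector Noc2 of endocrine and exocrine granules, stood at 20 to 49 FPKM in the cancers against 21 to 34 in the controls, with a difference of 0.10 ± 0.28 and an adjusted p of 0.803. It passed on TPM, at 1.06 with an adjusted p of 0.0361, and its highest adjusted p over alternatives was 0.862. Its paralogue Rph3a, rabphilin, was listed at 0 in all 8 samples and was not tested.

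Of the vesicle membrane proteins and synapsins, 5 of 6 tested were higher and the other did not pass the test, with a median difference of 2.30. Syp (chrX:7638579-7653256), synaptophysin, the most abundant vesicle membrane protein and a pathology marker of neuroendocrine cells, had FPKM of 83, 41, 74, 37 and 87 in the cancers against 4, 7 and 10 in the controls. All controls were above 0 and all cancers above them, by 3.02 ± 0.38 with an adjusted p of 0.00205. Gm14703, on the opposite strand, shares 875 of the 5211 exonic bases of Syp, and it too was not among the genes measured. Syn1 (chrX:20848542-20920918), which tethers vesicles to the cytoskeleton and carries the RE1 and CRE matches printed above, was 15, 7, 12, 6 and 12 FPKM in the cancers but listed at 0 in the controls. The adjusted p was 0.000725. Syn2, a second synapsin, was 12, 6, 7, 4 and 9 in the cancers against 1 in each control, without overlap, and differed by 2.03 ± 0.29 with an adjusted p of 0.00317.

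Sv2a, a transporter-like protein of vesicles and granules, reached 7, 4, 8, 5 and 10 FPKM in the cancers against 0, 1 and 0 in the controls. The groups did not overlap and the difference was 2.57 ± 0.34 with an adjusted p of 0.00237. Sv2c, its relative, was 2, 2, 1, 1 and 2 in the cancers but listed at 0 in the controls, with an adjusted p of 0.00325 that became 0.0543 after quantile normalization, the highest over its alternatives. Sv2b was 1 in cancers 2 and 5 and 0 elsewhere and was not tested. Syn3 was 1 in cancers 1, 3 and 5 and 0 in the other samples, with an adjusted p of 0.156. Timp3, which lies on the opposite strand within Syn3 and shares 1733 of its 12282 exonic bases, was at 5 to 23 FPKM, and reads of the gene and this partner can be told apart only where counting used strand, which is not given.

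**Figure D2:**
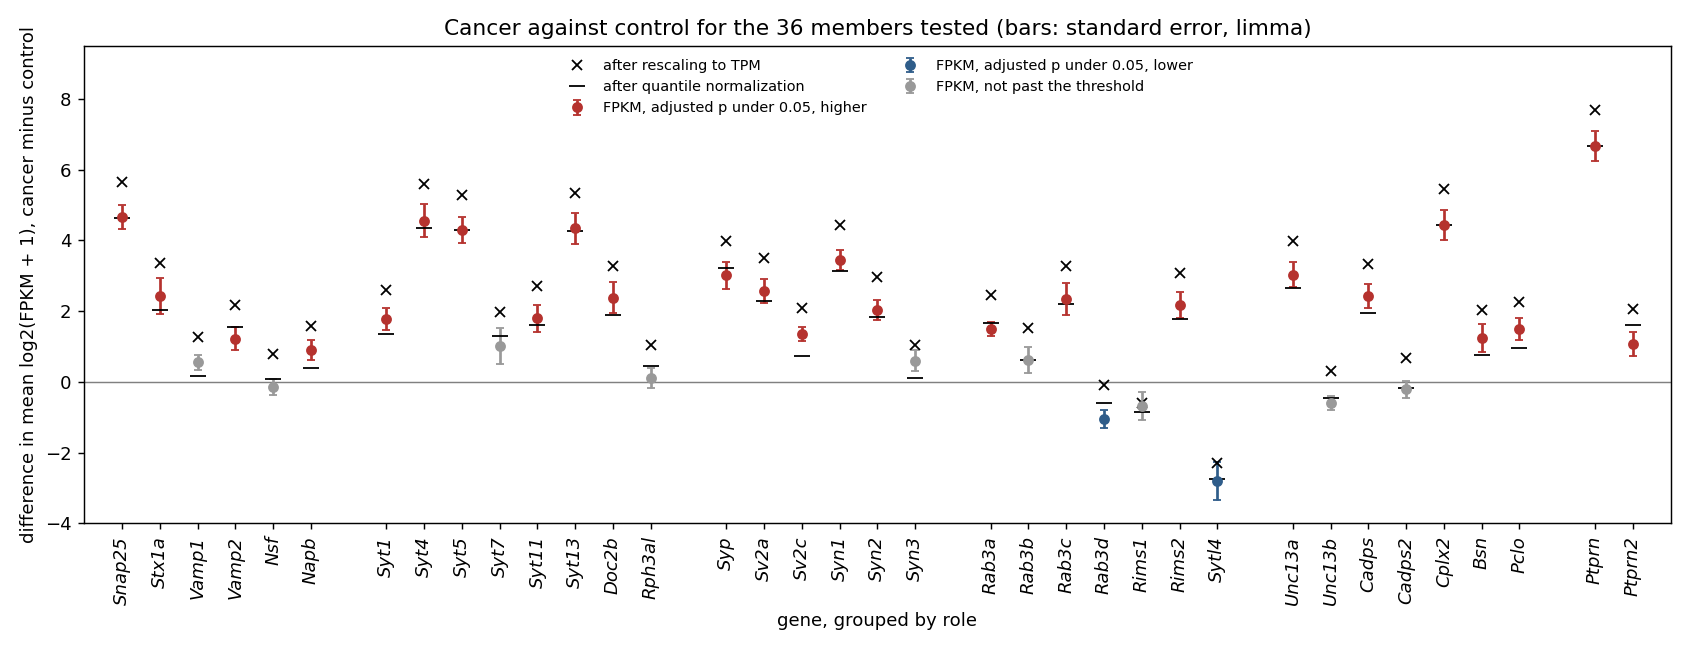
Difference in mean log2(FPKM + 1), cancer minus control, for the 36 members tested, with the SE of limma as bars, as coloured points (red higher, blue lower, grey not past the threshold), with the difference on TPM as a cross and after quantile normalization as a dash. Ptprn lies highest at 6.68 and Sytl4 lowest at -2.81, the TPM cross of Rab3d is near 0 at -0.10, and differences of genes listed at 0 in the controls depend on the added 1.

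Of the Rab3 GTPases and the other effectors listed with them, 3 of 7 were higher, 2 were lower and 2 did not pass the test, with a median difference of 0.62. Rab3a (chr8:70754678-70760921), the Rab of synaptic vesicles, had FPKM of 29, 20, 22, 21 and 29 in the cancers against 6, 8 and 10 in the controls. The cancers were narrowly spread and all above the controls, by 1.49 ± 0.20 with an adjusted p of 0.00267. Rab3c was 12, 3, 17, 8 and 12 FPKM in the cancers against 1 in every control, a difference of 2.35 ± 0.45 with an adjusted p of 0.00796. Cancer 2 was the nearest to the controls. Rims2, an active zone scaffold that binds Rab3 and Munc13, was 6, 3, 8, 3 and 5 FPKM in the cancers against 1, 0 and 0 in the controls. It did not overlap either, at 2.18 ± 0.36 with an adjusted p of 0.00481.

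Rab3d (chr9:21907510-21918121), the Rab of exocrine zymogen granules, went the other way, with FPKM of 39, 58, 32, 36 and 60 in the cancers against 78, 85 and 117 in the controls. All cancers lay below all controls, and the difference was -1.06 ± 0.26 with an adjusted p of 0.0183. This call depended on the scale: it was -0.10 with an adjusted p of 0.75 on TPM and -0.60 with 0.1 after quantile normalization, and it was lost without control 2 (0.0527) and without control 3 (0.0718), in a range of 0.0158 to 0.75. Sytl4 (chrX:133936384-133981783), the Rab27 and Rab3 effector granuphilin, was 0, 3, 1, 5 and 2 FPKM in the cancers against 19, 19 and 16 in the controls. It was lower without overlap, with a difference of -2.81 ± 0.53 and an adjusted p of 0.00765, and passed the test on TPM, at -2.30, and after quantile normalization, at -2.74. In the cancers Rab3d nevertheless had the highest FPKM of the 4 Rab3 GTPases in each sample.

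Rab3b ranged from 6 to 15 FPKM in the cancers and from 3 to 8 in the controls, with a difference of 0.62 ± 0.36 and an adjusted p of 0.199. On TPM it passed, at 1.53 with 0.00699, and its highest adjusted p was 0.587. Rims1, the paralogue of Rims2, was 2 in cancer 2, 0 in the other cancers and 1 in every control, and its difference of -0.68 ± 0.39 had an adjusted p of 0.194. Without cancer 2 the cancers held only 0 and the adjusted p was 0.000688, which rests on values of 0 and 1, and it reached 0.451 over the alternatives.

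Of the priming factors, complexins and active zone scaffolds, 5 of 7 tested were higher and the other 2 did not pass the test, with a median difference of 1.5. Cplx2 (chr13:54371348-54383917), complexin-2, which clamps and activates the assembled SNARE complex, had FPKM of 106, 38, 56, 25 and 48 in the cancers against 1, 1 and 2 in the controls. It was separated widely, at 4.44 ± 0.42 with an adjusted p of 0.00101. Cplx1, the other complexin listed, was 1 in cancer 2 and 0 elsewhere and was not tested. Unc13a (chr8:71626711-71671757), Munc13-1, which opens syntaxin, was 9, 3, 10, 6 and 11 FPKM in the cancers but listed at 0 in the controls. Its adjusted p was 0.00159. Colgalt1 on the opposite strand shares 495 of its 12623 exonic bases and was at 13 to 29 FPKM in all samples.

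Cadps, the CAPS-1 priming factor of dense core granules, was 6, 2, 8, 3 and 5 FPKM in the cancers but listed at 0 in the controls, with an adjusted p of 0.00314. Pclo, piccolo, a very large active zone scaffold, was 2, 1, 2, 1 and 4 in the cancers but listed at 0 in the controls, with an adjusted p of 0.01. Bsn, bassoon, its relative, was 4, 1, 2, 1 and 3 FPKM against 0, 0 and 1. Here cancers 2 and 4 equalled control 3. The difference of 1.25 ± 0.39 had an adjusted p of 0.0432 and was lost without cancer 1 (0.0696), cancer 3 (0.0859), cancer 5 (0.0791), control 1 (0.142) or control 2 (0.137) and after quantile normalization (0.149), in a range of 0.0131 to 0.149.

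The more widely expressed paralogues of these priming factors were not called. Unc13b, Munc13-2, had FPKM of 11, 6, 9, 9 and 10 in the cancers against 13, 17 and 12 in the controls. The cancers lay below the controls without overlap, but the difference of -0.59 ± 0.20 had an adjusted p of 0.0557. It was 0.31 on TPM, so its direction rests on the scale, and its adjusted p ranged from 0.0492, among genes with mean FPKM from 5 upwards, to 0.407. Cadps2, CAPS-2, stood at 4 to 10 FPKM in the cancers against 7 to 9 in the controls, with a difference of -0.21 ± 0.25 and an adjusted p of 0.529, and of 0.67 on TPM.

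Both receptor-type phosphatases, IA-2 and IA-2beta, which are inactive enzymes that span the dense core granule membrane, were higher. Ptprn (chr1:75247040-75264208), encoding IA-2, had FPKM of 446, 156, 257, 164 and 467 in the cancers against 1, 2 and 2 in the controls. This was the largest difference of the module, 6.68 ± 0.43 with an adjusted p of 0.000329, and it was 6.48 to 7.68 over the alternatives. Ptprn2 (chr12:116485719-117337012), encoding IA-2beta, was 232, 87, 237, 122 and 148 FPKM in the cancers against 68, 64 and 88 in the controls. Cancer 2 lay just below control 3. The difference of 1.07 ± 0.35 had an adjusted p of 0.0472 and was lost without any 1 library other than cancer 2, with adjusted p of 0.0548 to 0.14, in a range of 0.0054 to 0.14. These phosphatases held 678, 243, 494, 286 and 615 of the summed FPKM in the cancers against 69, 66 and 90 in the controls.

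The make-up of several paralogue families differed between the groups, as a description chosen after the values were seen and without a test. Rab3d held 41.0% to 63.0% of the FPKM of the 4 Rab3 genes in the cancers against 84.8% to 87.6% in the controls, and Rab3a 21.7% to 33.7% against 6.52% to 8.25%. Ptprn held 52.0% to 75.9% of the FPKM of the phosphatases in the cancers against 1.45% to 3.03% in the controls. Syt7 held 75.0% of the FPKM of the 6 synaptotagmin members in each control, and 12.5% to 23.7% in the cancers. Unc13a held 33.3% to 52.6% of Unc13a and Unc13b together in the cancers, and Cadps 30.0% to 50.0% of Cadps and Cadps2, and both were listed at 0 in the controls. Such shares are free of the scale of a library.

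**Figure D3:**
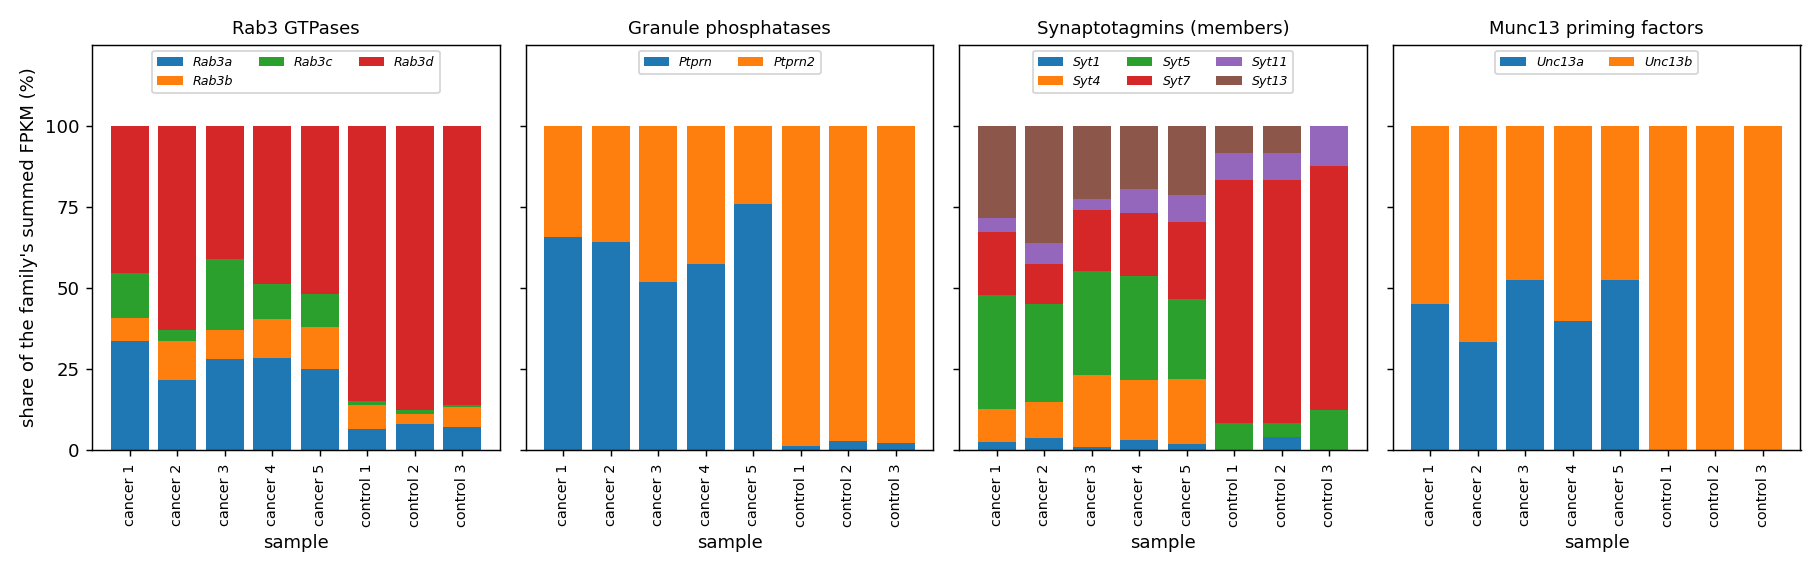
Share in percent of a family's summed FPKM held by each member, as stacked bars from 0 to 100, in each of 5 cancers and 3 controls, for the Rab3 GTPases, the granule phosphatases, the member synaptotagmins and the Munc13 factors. Ptprn takes 52.0% to 75.9% of the phosphatases in the cancers and at most 3.03% in the controls, and Rab3d takes at most 63.0% of the Rab3 genes in the cancers and at least 84.8% in the controls.

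A ratio of paralogues within a sample is also free of that scale apart from the added 1, and 10 log2 ratios of FPKM + 1 were compared by exact permutation test, two-sided, over the 56 splits of 8 samples, which cannot give a p below 0.0179. Of the 10 ratios, 8 had all cancers above all controls. Snap25 against Snap23, the target SNARE of most other cells, had a ratio of 2.31 ± 0.48 (SD, n = 5) in the cancers and -3.38 ± 0.80 (SD, n = 3) in the controls. The difference of 5.69 had an exact permutation p of 0.0179, the smallest possible, and 0.0256 after Benjamini-Hochberg adjustment over the 10. Snap23 itself was 11 to 14 FPKM in the cancers against 18 to 37 in the controls, a difference of -1.03 on FPKM and -0.10 on TPM.

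The other ratios at that smallest exact permutation p, with the same adjusted value, included that of Syp to Sypl, a broadly expressed synaptophysin relative (1.65 ± 1.13 in the cancers, -3.09 ± 0.54 in the controls). They also included Unc13a to Unc13d, the Munc13 of blood and exocrine cells (1.60 ± 1.28 and -2.21 ± 0.19, where the control value is set by the added 1 because Unc13a was listed at 0), Rab3a to Rab27b, a Rab of exocrine granules and mast cells (1.32 ± 0.98 and -2.16 ± 0.74), Stx1a to Stx3, the apical syntaxin (-0.39 ± 0.97 and -3.80 ± 0.36), and Vamp2 to Vamp3, the ubiquitous VAMP (0.57 ± 0.60 and -1.32 ± 0.69). Vamp2 to Vamp8, the VAMP of exocrine granules, was -1.55 ± 1.02 in the cancers and -3.97 ± 0.49 in the controls, with an exact permutation p of 0.0357 and 0.0446 after adjustment, and the groups did not overlap. Napb to Napa differed by 0.74 with an exact permutation p of 0.0893 and 0.0992 after adjustment, and overlapped. Syt1 to Syt11 was -1.09 ± 0.53 and -1.06 ± 0.50, a difference of -0.04 with an exact permutation p of 0.946. In the pairs of Snap25, Syp, Rab3a and Vamp2 the first gene was called higher and the second lower on the FPKM scale. On TPM the differences of Snap23, Sypl, Rab27b, Vamp3 and Vamp8 were -0.10, -0.79, -1.11, 0.28 and -0.23, of which those of Sypl and Rab27b passed the test. With 1 sample left out, the exact permutation p rose to 0.0571 for Vamp2 to Vamp8 without any 1 of the cancers, for Unc13a to Unc13d without cancer 1, 3, 4 or 5 and for Vamp2 to Vamp3 without cancer 4, and it fell to 0.0476 for Napb to Napa without control 2.

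**Figure D4:**
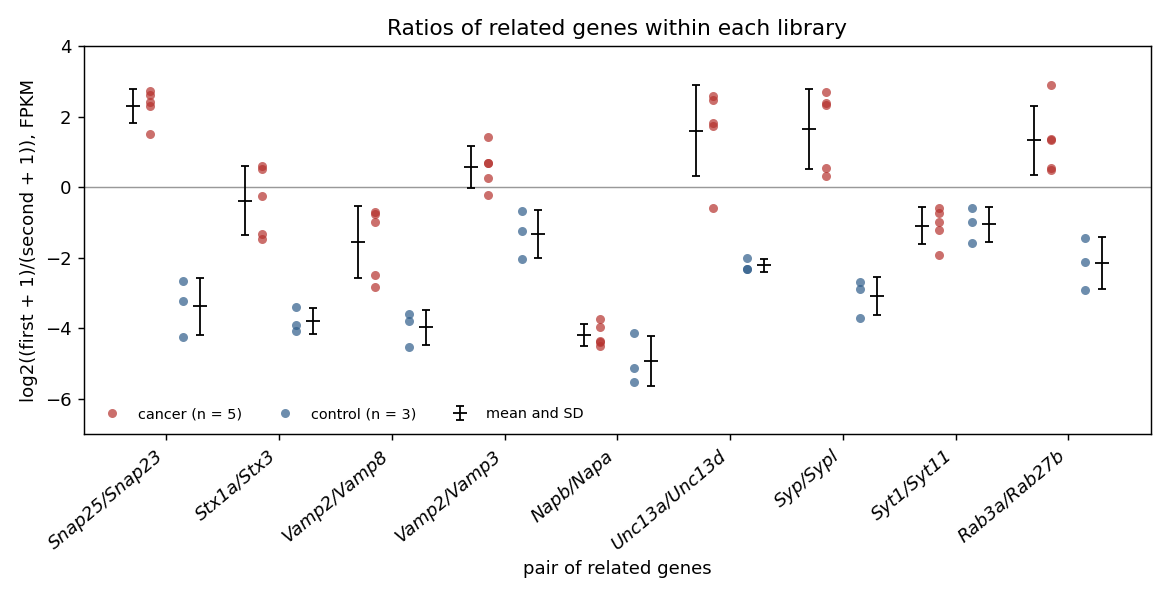
Log2 ratio of FPKM + 1 for 9 of the 10 pairs of paralogues in each of 5 cancers and 3 controls, with the mean and SD of each group as bars beside the points (red cancers, blue controls). In 7 of the pairs shown the cancers lie wholly above the controls, and for Syt1 to Syt11 the means are -1.09 and -1.06.

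The members' levels also differed among the cancers. Of the 25 higher members, 21 were higher in each of cancers 1, 3 and 5 than in cancers 2 and 4, a split seen in these values and given without a test. The same held for 20.0% of all genes tested and for 38.3% of the 2326 genes called higher in the cancers, so it was not limited to these members. The highest value was in cancer 5 for 10 members, in cancer 1 for 7 and in cancer 3 for 5, with ties for 3, and in cancers 2 and 4 for 0. The lowest was in cancer 2 for 13, in cancer 4 for 5 and in cancer 3 for 1, with 6 ties. The mean of log2(FPKM + 1) over these 25 genes was 4.17, 3.21, 4.02, 3.37 and 4.28 in cancers 1 to 5 and 1.01, 1.19 and 1.17 in controls 1 to 3. Without cancers 2 and 4, an alternative chosen after these values were seen, 26 members were higher and 3 lower with a median difference of 1.83, while 21.8% of all genes were called higher and 24.5% lower in that fit. Syt7 and Syn3 were then called higher and Rims1 lower, and Napb was no longer called.

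Summed levels of marker genes also differed between the cancers. Gastric gland markers without Pgc summed to 689, 67139, 4997, 46545 and 15005 FPKM in cancers 1 to 5 and to 156314 to 222527 in the controls, so cancers 2 and 4 held the most gland RNA of the cancers. Squamous markers summed to 1, 27, 470, 1912 and 798 in the cancers against 2759 to 4699 in the controls, which carried both epithelia of the labelled junction, and cancer 1 carried little of either. Of the 12 enteroendocrine markers, 8 were higher and the other 4 did not pass the test, and the summed list reached 17406, 11292, 19299, 18969 and 19708 FPKM in cancers 1 to 5 against 2548 to 3895 in the controls, so cancer 2 was lowest among the cancers while cancer 4 lay above cancer 1. The sum mixes opposite directions, since Ghrl, the ghrelin gene, held 2526, 2160 and 3471 FPKM of it in controls 1 to 3 and 0, 381, 86, 1330 and 100 in cancers 1 to 5, below all controls but with an adjusted p of 0.0947. The part of gland or enteroendocrine content in the order of the cancers was not tested.

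Enteric nerves use the same machinery. Of 11 enteric neuron markers 7 were tested and 4 were higher (Elavl4, Snap91, Nefl and Nefm), the list summed to 30 to 59 FPKM in the cancers against 4 to 9 in the controls, and Phox2a and Chat were at 0 in every sample. The neuropeptide gene Vip was 0, 25, 5, 9 and 1 FPKM in cancers 1 to 5 and 5, 4 and 2 in the controls, and Hand2 was 0, 12, 3, 3 and 2 against 3, 2 and 1, both highest in cancer 2 and without passing the test. The sum was 57, 59, 55, 30 and 36 in cancers 1 to 5. The part of nerves in the members' levels was not tested. Glia markers summed to 1 to 6 in the cancers against 0 to 1 in the controls, with Sox10 and Foxd3 at 0 throughout. Of 3 adrenal medulla markers Dbh and Pnmt were at 0 in every sample, and Th was 9, 8, 1, 0 and 0 FPKM in cancers 1 to 5 and 0 in the controls. Of 4 islet markers Ins1 was at 0 in every sample and Ins2 and Iapp reached at most 1. Gcg, the glucagon gene, which intestinal endocrine cells also express, was 8250, 17443, 8054, 89 and 36 in the cancers against 3, 48 and 4 in the controls, higher with an adjusted p of 0.0482 although the groups overlapped. Mast cell markers, of cells that use Rab27b and Vamp8, were lower for 5 of 7 tested and summed to 1 to 33 in the cancers against 47 to 83 in the controls, and their part in the levels of those genes was not tested.

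**Figure D5:**
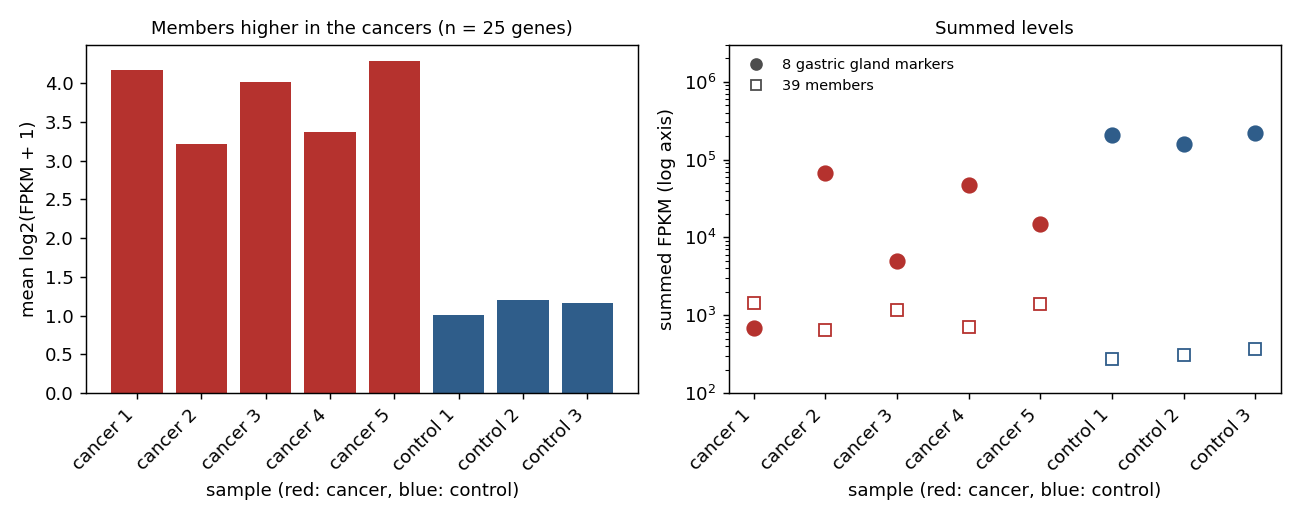
Mean log2(FPKM + 1) of the 25 members higher in the cancers as bars (left), and the summed FPKM of 8 gastric gland markers (filled circles) and of the 39 members (open squares) on a log axis (right), in each of 5 cancers and 3 controls. Cancers 2 and 4 have the lowest means of the cancers, 3.21 and 3.37, and the highest sums of gastric gland markers, 67139 and 46545 FPKM.

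Beyond the 39 members, 107 other genes of the same pathways were listed, of which 94 were tested, 18 were higher, 22 lower and 54 did not pass, with a median difference of -0.20. These counts lie near the background of 16.2% higher and 18.3% lower, and on TPM they were 47 higher and 4 lower. Among other SNARE proteins and partners 6 of 26 tested were higher and 7 lower. Stxbp5l, tomosyn-2, a SNARE inhibitor, was 3, 0, 3, 4 and 4 in the cancers but listed at 0 in the controls, with an adjusted p of 0.0386. Cancer 2 equalled the controls, and the adjusted p was 0.0858 after quantile normalization and 0.0201 on TPM.

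Of the other synaptotagmin-type proteins 3 of 15 tested were higher and 3 lower. Syt9, a sensor of endocrine granules, was 9, 3, 6, 3 and 6 FPKM in the cancers but listed at 0 in the controls, with an adjusted p of 0.00194. Syt16 was 1, 17, 5, 10 and 5 in the cancers against 45, 30 and 27 in the controls, a difference of -2.34 ± 0.65 with an adjusted p of 0.0281 that became 0.059 on TPM, at -1.53, and 0.0378 after quantile normalization. Cancers 2 and 4 had its highest cancer values. Of the other vesicle membrane genes 2 of 12 tested were higher, Synpr (synaptoporin, 5 to 14 FPKM) and Syngr3 (synaptogyrin-3, 5 to 11 FPKM), both listed at 0 in the controls with adjusted p of 0.000778 and 0.000684, and 4 were lower.

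Of the Rab27 and Rab3 regulators and active zone partners 3 of 17 were higher and 2 lower. Rimbp2, which links RIM proteins to calcium channels, was 18, 6, 18, 5 and 20 FPKM in the cancers but listed at 0 in the controls, with an adjusted p of 0.00225. Rab27b was 3, 14, 8, 14 and 11 in the cancers against 52, 38 and 29 in the controls, lower without overlap by -1.99 ± 0.45 with an adjusted p of 0.0147. For the exocyst, the tether of constitutive secretion, 3 of 9 genes were lower and the others did not pass the test. Its Exoc7 differed by -0.83 on FPKM and 0.08 on TPM and Exoc8 by -0.63 and 0.20, so that direction rests on the scale. Of the endocytosis genes that recover vesicle membrane, 4 of 15 tested were higher and 3 lower. Pacsin1, a membrane-bending protein, and Snap91, a clathrin adaptor that is also among the neuron markers, were 4 to 14 and 4 to 11 FPKM in the cancers but listed at 0 in the controls, with adjusted p of 0.00272 and 0.00091.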

How the data were processed

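RNA of 5 SCJ cancers and 3 control SCJ samples was sequenced from directional libraries. Per the submitters' processing notes, the tools were cutadapt 1.8, TopHat2 2.0.13 and Cuffnorm 2.2.1 on mm10, and the authors quantified annotated genes with cuffquant. Whether counting used strand is not given in the sources used here. The deposited values are FPKM rounded to whole numbers and were treated as a score rather than counts, since 100% of values were whole. Depth per sample is unknown, so no counting interval is given.

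Genes that reached an FPKM of 1 in 3 or more samples were compared on log2(FPKM + 1) with limma 3.58.1 and R 4.3.3 (lmFit, then eBayes with a mean trend), adjusted by Benjamini-Hochberg over 14357 genes and called at a threshold of 0.05. Ratios were compared by exact permutation in SciPy 1.17.1. Tested on simulated data for this comparison, with 14357 genes of which 200 were changed by 3 on the log2 scale, the fit called 169 of the 200, all in the right direction, and 18 unchanged genes. False calls thus made up a larger share of the calls than the threshold of 0.05. The simulation gave both groups the same spread and used a change above the members' median of 1.63, so it does not cover genes at 0 in all controls. No pair of libraries was alike: at least 64.9% of genes differed between any 2.

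Members, related lists and markers were chosen with earlier results of these data known, and 207 list entries were matched. All 39 members are named, as are the 2 genes with the largest difference among those called in each related list and both genes of each pair, except 1 pair and 1 related gene that are not reported here. Family shares, promoter motifs, exon overlaps and the fit without cancers 2 and 4 were chosen after values were seen. Loci are those of the deposited table, and all 39 overlap their RefSeq entries. Exon overlap is from GENCODE M21. Alternatives were a pseudocount of 0.1, no filter, a mean FPKM of at least 5, TPM, quantile normalization, no trend, a replicate block, and leaving out each sample.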

Additional observations from a re-analysis of the deposited data

Results flagged for a closer look

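Among the 5 cancers, 1 sample lay far from the others for 4 of 58 results checked, by a ratio of its gap to the range above 0.71, which chance gives in about 1 in 20 groups. The gap and range were taken on log2(FPKM + 1), or on the log2 ratio of a pair, and not on the FPKM printed here. In each case the sample was cancer 2. Snap25 was 33 FPKM there and 68 to 91 in the other cancers (ratio 0.711). Rims1 was 2 there and 0 in the other cancers (ratio 1.0). The Unc13a to Unc13d log2 ratio was lowest there (ratio 0.733), and Stxbp5l was listed at 0 there and at 3 or 4 in the others (ratio 0.861).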

How the results depend on the processing

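Over the alternatives, 495 values of members kept their direction and their side of the threshold, 48 no longer passed, 11 newly passed and 8 turned. The median difference of the members was 3.11 with a pseudocount of 0.1 and 2.53 on TPM, and 1.48 to 1.71 with each sample left out. Members higher numbered 14 with a mean FPKM of at least 5 (22 tested), and 20 to 25 with each sample left out. Of all genes, 13.6% were called higher with that mean, and 9.49% to 17.1% with each sample left out. Members lower numbered 1 on TPM, 1 after quantile normalization and 1 to 3 with each sample left out. The shares of all genes called lower were 3.68%, 13.2% and 8.26% to 19.3% in the same order. Related genes higher numbered 8 with a mean FPKM of at least 5 (63 tested), 47 on TPM and 12 to 18 with each sample left out. On TPM 50.0% of all genes were called higher, and the other shares are those given for the members. Related genes lower numbered 4 on TPM, 13 after quantile normalization and 13 to 25 with each sample left out, beside the same shares of all genes called lower. On TPM 93.1% of all calls were higher, against 47.0%.

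Same-numbered samples did not deviate together (correlations of -0.02, -0.19 and -0.10), so the numbers do not pair them. With a replicate block, 13 members were higher and 0 lower, 14 related genes were higher and 1 lower, and 6.84% of all genes were called higher and 3.84% lower, with a median difference of the members of 1.49. At an unadjusted p of limma under 0.05, 2 members were lower in the blocked fit.

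Turned directions were those of Nsf (0.79 on TPM, 0.069 after quantile normalization, 0.13 without cancers 2 and 4, -0.24 to 0.0093 with each sample left out), Unc13b (0.31 on TPM), Cadps2 (0.67 on TPM), Rph3al (-0.086 to 0.25 with each sample left out) and the Syt1 to Syt11 ratio (1.64 with a pseudocount of 0.1, -0.30 to 0.20 with each sample left out), all of which did not pass the test in the reported fit. The cause was not tested. Rounding and unknown depth limit all values of a few FPKM.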
